A study of Mus musculus with 10 samples.

Results

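Adipokines and brown-fat secreted factors are hormones and growth factors that adipocytes release and that act on other cells. The 10 genes described here were chosen by name, and they are Adipoq, Lep, Retn, Nrg4, Bmp8b, Fgf21, Rbp4, Apln, Gdf15 and Nampt. They are 10 of 24454 genes listed with counts, all 10 were found by Entrez gene identifier, and 8 of them were among the 13568 genes that passed the filter on low counts. Fgf21 and Gdf15 did not pass it and were not tested.

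Brown adipose tissue (BAT) burns lipid for heat, and it also releases proteins that act on nearby nerves, vessels and adipocytes or on distant organs. Adiponectin, leptin and resistin are the classical hormones of adipocytes, of which leptin and resistin are known mainly from white fat, whereas neuregulin 4 and BMP8B are known as factors made by brown fat. STAT5 is a transcription factor activated by growth hormone and other cytokines through Janus kinases.

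RNA-Seq was performed on BAT of 5 control and 5 *Stat5* Adipoq mice, with 1 library per mouse. Its stated aim was to survey how transcription in BAT changes when Stat5 is deleted in adipocytes. All animals were males on the C57BL/6N strain, 2 months old and fed ad libitum. The sample titles call all of them basal and name no treatment. *Stat5* Adipoq mice lack Stat5a and Stat5b where a Cre transgene under the promoter of Adipoq, itself one of the 10 genes, is active, and controls were littermates with floxed Stat5 and no Cre according to the methods, although the sample labels name them wild type. Counts on genes ranged from 8488129 to 19514904 per control library and from 9401827 to 15686868 per *Stat5* Adipoq library. Values below are CPM, counts scaled to library size and by TMM, and log2 fold changes give *Stat5* Adipoq against control. A gene was called where the p-value of edgeR's quasi-likelihood test, adjusted by Benjamini-Hochberg over 13568 tested genes, was below 0.05.

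The deleted genes were examined first. Stat5a was 110, 130, 92.6, 86.9 and 107 CPM in control replicates 1 to 5 and 20.7, 15.8, 16.2, 16.6 and 16.1 CPM in *Stat5* Adipoq replicates 1 to 5. Stat5b was 82.0, 84.8, 83.7, 76.6 and 91.9 CPM in controls and 21.0, 22.0, 21.4, 22.9 and 21.5 CPM in *Stat5* Adipoq libraries. Both mRNAs were lower in every *Stat5* Adipoq library than in any control, as the labels state the genotypes. Whole tissue was sequenced, so that fewer cells of one type and less RNA per cell cannot be told apart in any result below.

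Of the 8 tested secreted factors, 1 was called, Retn, which was lower, and none was called higher. Over all tested genes, 2.71% were called in either direction, 1.31% lower and 1.4% higher. DESeq2's Wald test called Bmp8b higher besides Retn lower, and limma-voom called Retn alone. Before adjustment 5 of the 8 had p-values below 0.05, against 15.2% of all tested genes. The median log2 fold change of the 8 was 0.06, beside -0.00 for all tested genes, with 4 above 0 and 4 below. Retn was also the 1 gene of the 8 for which all libraries of the genotypes were apart, which was the case for 4.39% of tested genes.

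**Figure D1:**
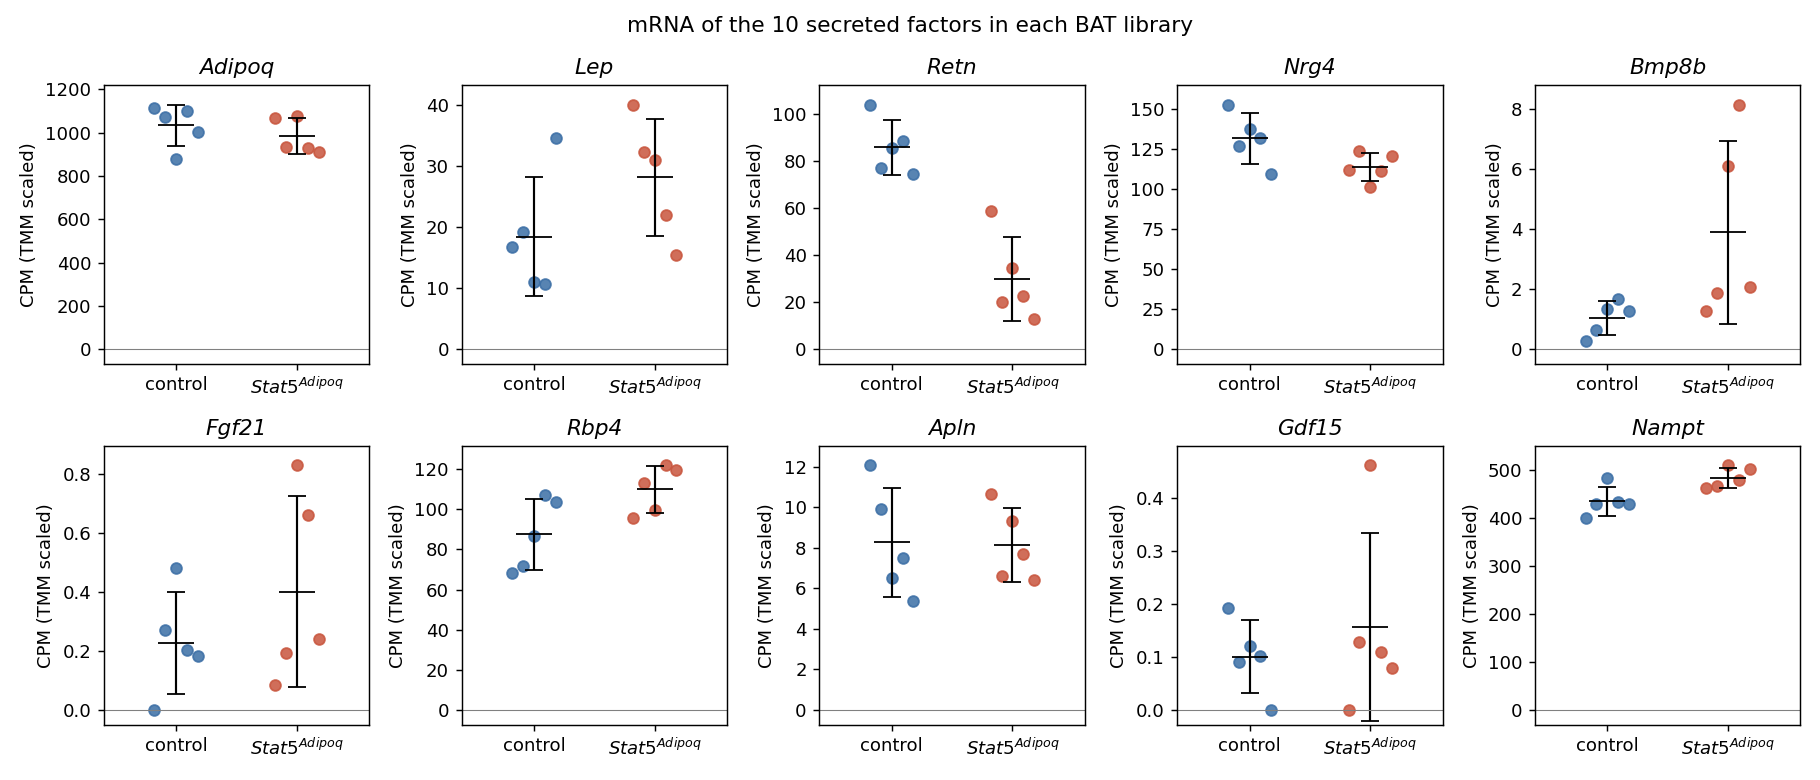
CPM (TMM scaled, linear axes) of the 10 secreted factors in each library, with 5 control points in blue and 5 *Stat5* Adipoq points in red placed from replicate 1 on the left to replicate 5 on the right, and black bars for mean ± SD. The Retn points of *Stat5* Adipoq libraries, between 13.0 and 58.7 CPM, all lie below the lowest control at 74.5 CPM, and for the other 9 genes the points of the genotypes overlap.

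Retn encodes resistin, a small cysteine-rich hormone that in mice is made by adipocytes and lowers the response to insulin. It lies at chr8:3655770-3659818 of GRCm38. Retn mRNA was 104, 77.1, 85.7, 88.6 and 74.5 CPM in control replicates 1 to 5 and 58.7, 19.9, 34.5, 22.6 and 13.0 CPM in *Stat5* Adipoq replicates 1 to 5. Every *Stat5* Adipoq library lay below every control, with replicate 1 nearest to them and replicate 5 the lowest. The means were 86.0 ± 11.7 CPM (SD, n = 5) and 29.7 ± 18.0 CPM (SD, n = 5), so that relative spread was wider in *Stat5* Adipoq BAT (coefficient of variation 13.6% in control and 60.4% in *Stat5* Adipoq). The log2 fold change was -1.53 (standard error, SE, 0.31, 95% confidence limits -2.21 and -0.86, edgeR quasi-likelihood adjusted p = 0.0232). With 1 library left out the log2 fold change ranged from -1.94 to -1.34 and Retn was called in 6 of 10 fits. The call was lost without control replicate 1 (edgeR adjusted p = 0.0552) and without *Stat5* Adipoq replicate 2, 3 or 4 (adjusted p = 0.0560, 0.0572 and 0.0707), within a range of 0.00158 to 0.0707.

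Markers of white adipocytes were examined beside Retn. Of 9 tested markers of this list, 8 had log2 fold changes below 0 and 1, Npr3, was called higher, with a list median of -0.41. Hoxc8, a homeobox gene of caudal body position that marks white depots, was 13.3, 7.99, 10.6, 7.03 and 9.23 CPM in controls and 9.05, 2.56, 2.68, 3.53 and 2.40 CPM in *Stat5* Adipoq libraries (edgeR adjusted p = 0.0883). Slc7a10, an amino acid transporter of white adipocytes, was 18.6, 17.2, 24.3, 16.5 and 7.95 CPM in controls and 11.8, 2.5, 5.63, 6.17 and 4.15 CPM in *Stat5* Adipoq libraries (edgeR adjusted p = 0.0525). For both, *Stat5* Adipoq replicate 1 was the highest of its group, as it was for Retn, and the genotypes overlapped. DESeq2's Wald test and limma-voom each called both genes lower, and so did edgeR without *Stat5* Adipoq replicate 1 (edgeR adjusted p = 0.00161 for Hoxc8 and 0.00963 for Slc7a10). Slc7a10 was also called without control replicate 5 (edgeR adjusted p = 0.0268), without both control libraries with muscle transcripts (0.0399), with no filter on low counts (0.0426) and with filterByExpr (0.0430). The summed level of the list was 228, 191, 243, 182 and 192 CPM in controls and 268, 229, 329, 261 and 237 CPM in *Stat5* Adipoq libraries, and Npr3 was its most abundant gene. Hoxc10 and Tcf21 were at 0 in all libraries. The part of white adipocytes in the result for Retn was not tested.

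Skeletal muscle transcripts stood apart in 2 control libraries. The summed level of 12 muscle markers was 74.6, 21.8, 4953, 6.22 and 402 CPM in controls and 55.8, 3.14, 7.20, 24.2 and 22.5 CPM in *Stat5* Adipoq libraries, with Myh4 the most abundant. Control replicate 3, and to a lesser degree control replicate 5, held far more of these transcripts than the other libraries. Without both, which was tried only once the values had been seen, Retn had a log2 fold change of -1.60 and was still called (edgeR adjusted p = 0.0406).

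Adipoq encodes adiponectin, which is released as multimers and raises the response to insulin, and lies at chr16:23146536-23157968. It was 1111, 1072, 878, 1101 and 1003 CPM in control replicates 1 to 5 and 1069, 934, 1078, 928 and 910 CPM in *Stat5* Adipoq replicates 1 to 5. The genotypes overlapped almost fully, and the lowest value was that of control replicate 3, the library with the most muscle transcripts. The log2 fold change was -0.07 with 95% confidence limits of -0.24 and 0.10 (edgeR quasi-likelihood adjusted p = 0.745), and Adipoq was called neither in the 8 other settings nor with any 1 library left out.

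The genes around Adipoq were examined next. Within 200 kb, 8 genes were tested, Adipoq included, and 5 were called higher (Kng2, Kng1, Eif4a2, Rfc4 and St6gal1), none lower. Over all tested genes 1.4% were called higher. The median log2 fold change was 0.45 beside -0.00 for all tested genes. Kng2, which encodes a kininogen, was 63.6, 67.2, 102, 67.4 and 79.9 CPM in controls and 222, 250, 323, 254 and 256 CPM in *Stat5* Adipoq libraries (log2 fold change 1.78, SE 0.14, edgeR adjusted p = 3.36e-05). Eif4a2, a translation initiation factor, was 224 to 244 CPM in controls and 311 to 349 CPM in *Stat5* Adipoq libraries. In 4 of the 5, all but St6gal1, the genotypes did not overlap, which was the case for 4.39% of all tested genes. St6gal1 kept its call only without control replicate 5 or *Stat5* Adipoq replicate 1 among fits with 1 library left out (adjusted p between 0.0101 and 0.113 from edgeR). It also lost the call with library size only and with a block for the replicate number (edgeR adjusted p up to 0.102). Rfc4 lost its call without both control libraries with muscle transcripts (edgeR adjusted p = 0.0623). Only *Stat5* Adipoq mice carry the Cre transgene with the Adipoq promoter, so the transgene and the loss of STAT5 cannot be told apart for these genes.

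Lep encodes leptin, the hormone that reports fat stores to the brain, and lies at chr6:29060221-29073876. It was 16.7, 19.2, 11.1, 10.6 and 34.6 CPM in control replicates 1 to 5 and 40.1, 32.3, 31.0, 21.9 and 15.5 CPM in *Stat5* Adipoq replicates 1 to 5. Of the *Stat5* Adipoq libraries, 1 exceeded all controls, and control replicate 5 was higher than the other 4 *Stat5* Adipoq libraries, so that the genotypes overlapped widely. For Lep the log2 fold change was 0.62, between 95% limits of -0.08 and 1.32 (edgeR quasi-likelihood adjusted p = 0.402). Leaving out 1 library gave 0.46 to 0.98, the highest without control replicate 5, where the adjusted p was 0.0944. Lep and Retn, both known as hormones of white fat, thus had fold changes of opposite sign, of which only that of Retn was called.

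Among the factors known from brown fat, Nrg4 encodes neuregulin 4, a ligand of ERBB receptors, and lies at chr9:55220222-55283654. Nrg4 mRNA was 153, 127, 138, 132 and 109 CPM in control replicates 1 to 5 and 112, 124, 101, 111 and 121 CPM in *Stat5* Adipoq replicates 1 to 5. All but 1 control lay above all *Stat5* Adipoq libraries, the exception being control replicate 5. Its log2 fold change was -0.21 with 95% confidence limits of -0.40 and -0.02, and it was not called (edgeR quasi-likelihood adjusted p = 0.265; range 0.0957 to 0.485 with 1 library left out). Exons of other genes on the opposite strand, Fbxo22 and Gm15625, cover 8.97% of the exon bases of Nrg4, and the strand setting of the counting is not given in the sources used here.

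Bmp8b encodes a bone morphogenetic protein that is induced in active brown fat, and lies at chr4:123104308-123126094. It had 3, 7, 11, 33 and 14 counts in control replicates 1 to 5 and 15, 29, 66, 74 and 26 counts in *Stat5* Adipoq replicates 1 to 5, or 0.287, 0.635, 1.32, 1.67 and 1.28 CPM and 1.26, 1.86, 6.09, 8.15 and 2.08 CPM. In CPM, *Stat5* Adipoq replicates 3 and 4 stood far above the rest, 2 and 5 slightly above all controls, and replicate 1 among the controls. The log2 fold change of 1.82 was the largest of the 8 but uncertain (SE 0.56, 95% confidence limits 0.60 and 3.04, edgeR quasi-likelihood adjusted p = 0.127). DESeq2's Wald test called Bmp8b (adjusted p = 0.0142), limma-voom did not (adjusted p = 0.290), and none of the 10 edgeR fits with 1 library left out did (adjusted p between 0.0693 and 0.290). With a block for the replicate number edgeR called it (adjusted p = 0.0211). In its longest annotated transcript 8.16% of 50-base words also occur in other genes, 76 in number, and 7.26% occur in Bmp8a, which had 0 counts in all libraries but *Stat5* Adipoq replicate 3. Genes on the opposite strand, Ppie and Gm17244, cover 12.2% of its exon bases, so its count is uncertain. The other 9 secreted factors shared no such word with another gene.

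Fgf21 and Gdf15 encode stress-induced hormones that act on the brain through KLB and GFRAL, and were near the limit of detection. Fgf21 had 0, 3, 4, 4 and 2 counts in control replicates 1 to 5 and 1, 3, 9, 6 and 3 counts in *Stat5* Adipoq replicates 1 to 5. Summed over libraries this was 0.215 CPM in control, with exact Poisson 95% limits of 0.114 and 0.367, and 0.367 CPM in *Stat5* Adipoq, with limits of 0.230 and 0.556. Gdf15 had 2, 1, 1, 2 and 0 counts in controls and 0, 2, 5, 1 and 1 counts in *Stat5* Adipoq libraries, or 0.0992 CPM (limits 0.0364 and 0.216) and 0.150 CPM (limits 0.0686 and 0.285). The limits, which cover counting error only, overlapped for both genes, and a difference between the genotypes was not tested. A count of 0, as for Fgf21 in control replicate 1, allows up to 3 counts or 0.287 CPM there.

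Rbp4 encodes the carrier of retinol in blood, made mainly by liver and also by fat, and lies at chr19:38116620-38125321. It was 68.2, 71.5, 86.7, 107 and 104 CPM in control replicates 1 to 5 and 95.7, 113, 99.5, 122 and 120 CPM in *Stat5* Adipoq replicates 1 to 5. Control replicates 1 to 3 lay below all *Stat5* Adipoq libraries and control replicates 4 and 5 among them. For Rbp4 the log2 fold change was 0.33, between 95% limits of 0.05 and 0.61 (edgeR quasi-likelihood adjusted p = 0.241).

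Nampt encodes the rate-limiting enzyme of NAD salvage, which is also found outside cells, and lies at chr12:32820335-32853369. It was 401, 430, 483, 433 and 430 CPM in control replicates 1 to 5 and 462, 467, 510, 480 and 502 CPM in *Stat5* Adipoq replicates 1 to 5. Only control replicate 3, the library with the most muscle transcripts, reached the *Stat5* Adipoq values. The difference was small, with a log2 fold change of 0.15, 95% confidence limits of 0.03 and 0.28 and an edgeR quasi-likelihood p of 0.224 after Benjamini-Hochberg adjustment, and Nampt had the least relative spread of the 10 genes (coefficient of variation 6.86% in control and 4.38% in *Stat5* Adipoq).

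Apln encodes apelin, a peptide that acts on vessels and heart through APLNR, and lies at chrX:48025146-48034853. It was between 5.39 and 12.1 CPM in controls and between 6.39 and 10.6 CPM in *Stat5* Adipoq libraries, with 54 to 148 counts per library. The *Stat5* Adipoq libraries lay within the range of the controls (log2 fold change -0.03, 95% confidence limits -0.50 and 0.45, edgeR quasi-likelihood adjusted p = 0.980). These limits still allow a moderate change in either direction. None of Rbp4, Nampt, Nrg4, Lep and Apln was called by DESeq2's Wald test, by limma-voom or in a fit with 1 library left out.

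Per kilobase of exon, the mean levels of the 10 mRNAs in control BAT spanned more than 4 orders of magnitude. The lower end of this span is uncertain, since Gdf15 had 6 counts summed over the control libraries. Adipoq led with 748 ± 69.9 CPM per kb (SD, n = 5), followed by Nampt with 86.1 ± 5.91, Rbp4 with 65.1 ± 13.3, Retn with 54.5 ± 7.42 and Nrg4 with 21.7 ± 2.62 CPM per kb. Lep was 5.49 ± 2.91, Apln 2.62 ± 0.856, Bmp8b 0.268 ± 0.145, Fgf21 0.239 ± 0.183 and Gdf15 0.0544 ± 0.0371 CPM per kb (SD, n = 5 each). Neighbours in this order whose ranges overlapped were Nampt and Rbp4, Rbp4 and Retn, Lep and Apln, Bmp8b and Fgf21, and Fgf21 and Gdf15. In *Stat5* Adipoq BAT the order of the means was the same, with 713 ± 59.7 CPM per kb for Adipoq, 95.8 ± 4.20 for Nampt and 81.9 ± 8.78 for Rbp4. By this length Retn was 18.8 ± 11.4 CPM per kb there, level with Nrg4 at 18.8 ± 1.47 CPM per kb. In controls every library had more Retn than Nrg4 per kb. Exon length counted each exon base of all annotated transcripts once. For Nrg4 it was 6075 bases, where its longest transcript has 2095, and for Retn 1579, where its longest has 1139. Levels per length of the longest transcript were not taken, so the order and the closeness of Retn and Nrg4 are given for this length only.

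**Figure D2:**
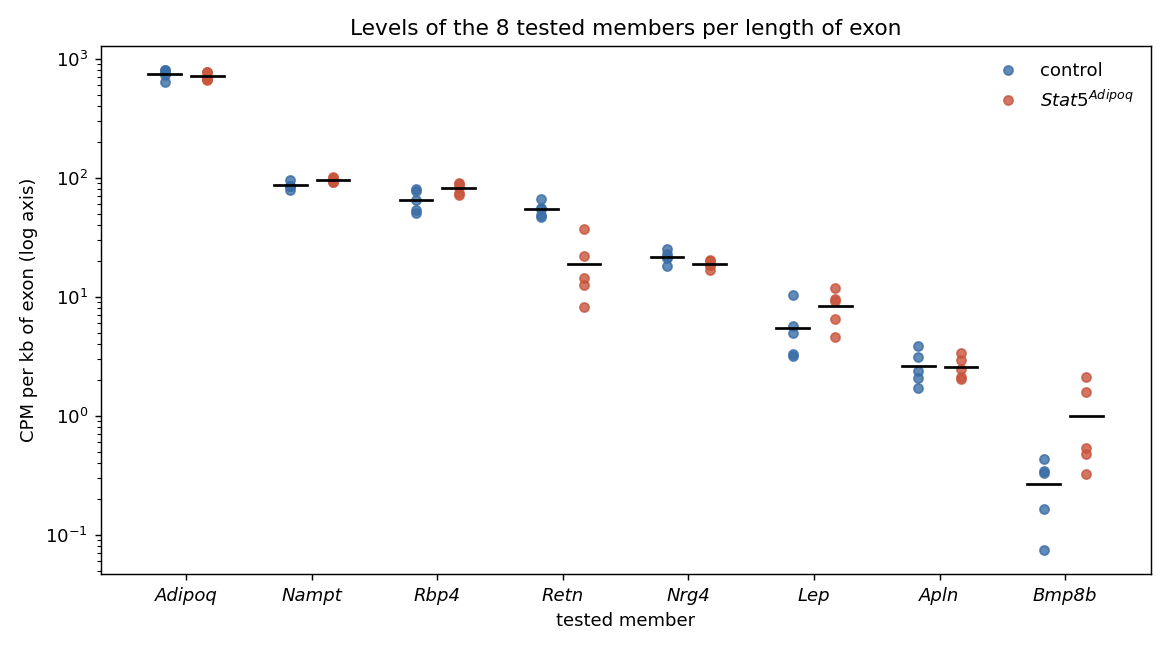
CPM per kb of exon (log axis) of the 8 tested secreted factors in each library, control in blue and *Stat5* Adipoq in red, with black lines for the mean of 5 libraries and genes in the order of their control means. Adipoq, at 748 and 713 CPM per kb, is far above the others, and Retn spreads from 8.25 to 37.2 CPM per kb in *Stat5* Adipoq libraries.

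For 7 of the genes, those with at least 50 counts on average, the genes most like them were sought by Pearson's r of log2 CPM over the 10 libraries after each genotype's mean was subtracted, among 10151 genes. The libraries share their depth scaling, and each value is the highest of many, so r is a description. Closest to Retn were 2700094K13Rik (r = 0.946) and Cfd (r = 0.942), and r was 0.851 and 0.840 without the 2 libraries farthest from the median of Retn. Cfd, which encodes the adipocyte protease adipsin, was itself lower in *Stat5* Adipoq BAT, and in both genes replicate 1 was the highest and replicate 5 the lowest *Stat5* Adipoq library. The closest to Adipoq were Elp4 (r = 0.957) and Tulp3 (r = 0.943), and those to Lep were 4930578C19Rik (r = 0.962) and Tnk2 (r = 0.947). Closest to Nrg4 were Trappc5 (r = 0.958) and Arl6ip1 (r = 0.929). Rbp4 was most like Cacna1a (r = 0.930), a calcium channel gene that was called higher, and R3hdm1 (r = 0.905). Apln was most like Pard6g (r = 0.947) and Faim (r = 0.934), and Nampt was most like Myom3 (r = 0.968) and Slc33a1 (r = 0.945).

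Receptors of these factors were examined in the same libraries. None of 15 tested receptor genes was called by edgeR, with an unadjusted p-value below 0.05 for 5, a median log2 fold change of -0.05 beside -0.00 for all tested genes, and 3 called by DESeq2's Wald test and 1 by limma-voom. The most abundant in CPM were Adipor2 and Adipor1, the receptors of adiponectin, Acvr1c and Fgfr1, with log2 fold changes of -0.20, 0.10, -0.20 and 0.08. The 3 genes DESeq2 called lower, chosen after their values were seen, were Klb, Bmpr1a and Adipor2. Bmpr1a was the 1 tested receptor gene whose genotypes did not overlap, as was the case for 4.39% of all tested genes. It was 56.5 to 65.4 CPM in controls and 49.3 to 55.0 CPM in *Stat5* Adipoq libraries (log2 fold change -0.21, edgeR adjusted p = 0.0676). Klb, the coreceptor of FGF21, was 120, 110, 85.4, 92.3 and 93.6 CPM in controls and 93.6, 66.0, 69.7, 65.8 and 68.9 CPM in *Stat5* Adipoq libraries. The genotypes overlapped only through *Stat5* Adipoq replicate 1, and the log2 fold change was -0.46 (SE 0.12, edgeR quasi-likelihood adjusted p = 0.0584). Klb was called without control replicate 3 (edgeR adjusted p = 0.0318) and without *Stat5* Adipoq replicate 1 (edgeR adjusted p = 0.00957). It was also called by limma-voom (adjusted p = 0.0483), with filterByExpr (edgeR adjusted p = 0.0495) and without both control libraries with muscle transcripts (edgeR adjusted p = 0.0394). A block for the replicate number gave a call too (edgeR adjusted p = 0.0190). Adipor2 was called without control replicate 3 (edgeR adjusted p = 0.0228) and Bmpr1a without control replicate 5 (edgeR adjusted p = 0.0463) and with library size only (edgeR adjusted p = 0.0392). Lepr, the leptin receptor, averaged 9.2 counts per library, Stra6 and Stra6l were not tested, and Gfral was at 0 in all libraries.

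Among close relatives, 11 of 22 genes were tested, 1 was called higher and none lower, and the median was -0.11. The called gene was Nrg2, a neuregulin like Nrg4, at 0.383, 0.635, 0.241, 0.607 and 0.183 CPM in controls and 0.838, 1.28, 2.12, 2.09 and 0.879 CPM in *Stat5* Adipoq libraries, with 11.0 counts on average. The genotypes did not overlap, with a log2 fold change of 1.70 (SE 0.41, edgeR adjusted p = 0.0466). Of the fits with 1 library left out, only that without *Stat5* Adipoq replicate 1 called it, with adjusted p between 0.0374 and 0.128. Nrg2 was called in 2 of the 7 other settings that tested it, DESeq2's Wald test and edgeR with DESeq2 size factors. Adjusted p over the 7 was between 0.0101 and 0.146. C1qtnf9 was called higher by DESeq2's Wald test (log2 fold change 0.35, adjusted p = 0.0211) and by edgeR without control replicate 2 (adjusted p = 0.0340). With all libraries edgeR did not call it (adjusted p = 0.0722). C1qtnf1 was called lower without *Stat5* Adipoq replicate 1 (edgeR adjusted p = 0.0484) but not with all libraries (edgeR adjusted p = 0.104). Retnla, the relative of Retn made by macrophages and adipose tissue, ranged from 8.71 to 25.0 CPM in controls and from 4.80 to 21.5 CPM in *Stat5* Adipoq libraries and was not called. Retnlb, Nrg1, Nrg3, C1qtnf5, Fgf15 and Fgf23 were listed at 0 in all libraries.

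Of 12 tested genes for assembly, processing and carriage of these proteins, 1 was called higher and none lower (median -0.12). Pcsk6, a proprotein convertase that cleaves precursors of secreted proteins, was 108, 119, 127, 117 and 104 CPM in controls and 157, 130, 150, 166 and 167 CPM in *Stat5* Adipoq libraries. All *Stat5* Adipoq libraries lay above all controls, although replicate 2 did so narrowly. Pcsk6 had a log2 fold change of 0.42 (SE 0.08, edgeR adjusted p = 0.0148), and it was called in all 10 fits with 1 library left out. With a block for the replicate number its call was lost (edgeR adjusted p = 0.0516). Furin, the most abundant of the list, had a log2 fold change of -0.02.

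In the lists of NAD synthesis (9 tested), the integrated stress response (16 tested), which induces Fgf21 and Gdf15, and transcription factors of adipokine genes (11 tested), no gene was called by edgeR, DESeq2 or limma-voom. Unadjusted p-values below 0.05 numbered 3, 2 and 2, and the medians were -0.07, -0.16 and -0.03. The most abundant NAD genes were Nadk, Nadk2, Naprt and Nmnat1, with log2 fold changes between -0.10 and 0.20. Those of the stress response were Atf5, Ppp1r15b, Atf4 and Asns, with log2 fold changes of -0.07, -0.21, -0.27 and 0.01. Among the transcription factors, Ppara, Cebpa, Srebf1 and Pparg had log2 fold changes of 0.27, -0.05, -0.23 and 0.19. Nnmt, which consumes nicotinamide and was also on the list of white adipocyte markers, was called lower without control replicate 5 (edgeR adjusted p = 0.0394).

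A wider list of 50 other adipokines and secreted factors was examined in the same way. Of its 43 tested genes, 5 were called lower and 4 higher, where 1.31% of all tested genes were called lower and 1.4% higher. They were the same 9 that DESeq2's Wald test and limma-voom called. The median was -0.15 beside -0.00 for all tested genes, and 29 of the 43 had log2 fold changes below 0. The list was chosen by name with earlier results of these data known, so its count of calls is a description. Whether this list differs from the 8 was not tested. Cfd was 1733, 1310, 1310, 1425 and 1150 CPM in controls and 748, 485, 602, 429 and 347 CPM in *Stat5* Adipoq libraries, without overlap (log2 fold change -1.41, SE 0.18, edgeR adjusted p = 0.00213). Igf1, the growth factor that growth hormone induces, was 42.7, 44.3, 24.8, 33.0 and 31.8 CPM in controls and 25.2, 16.3, 13.9, 15.3 and 10.5 CPM in *Stat5* Adipoq libraries. Only control replicate 3 and *Stat5* Adipoq replicate 1 overlapped, and the log2 fold change was -1.12 (SE 0.21, edgeR adjusted p = 0.0167). Lower too were Fndc5, the precursor of irisin (log2 fold change -1.08), Ccdc80, a matrix protein of adipocytes (-0.79), and Gpx3, the glutathione peroxidase of plasma (-0.64).

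Ptgds, the synthase of prostaglandin D2 that is also secreted as a carrier, was the gene of this list with the largest rise. It was 4.02, 4.99, 3.97, 3.13 and 4.39 CPM in controls and 24.5, 27.5, 51.9, 42.0 and 37.2 CPM in *Stat5* Adipoq libraries, without overlap (log2 fold change 3.17, SE 0.22, edgeR adjusted p = 1.26e-05). Fgf1, a growth factor of adipocytes, averaged 33.6 ± 7.71 CPM in control BAT and 72.0 ± 7.79 CPM without STAT5 in adipocytes (SD, n = 5 each; log2 fold change 1.10). S100b, a protein by which brown adipocytes attract sympathetic nerves, was 62.4 ± 11.1 and 131 ± 14.3 CPM (SD, n = 5 each; log2 fold change 1.07). Pm20d1, an enzyme secreted by thermogenic fat that makes N-acyl amino acids, had a log2 fold change of 0.34. Cfd, Ccdc80, Fgf1, S100b and Ptgds were called in all 10 fits with 1 library left out. Fndc5 lost its call without *Stat5* Adipoq replicate 4 and Igf1 without *Stat5* Adipoq replicate 3 or 4, with adjusted p up to 0.0512 and 0.0572. Gpx3 kept it only without control replicate 3 or *Stat5* Adipoq replicate 3 (adjusted p between 0.00613 and 0.0949 from edgeR), and Pm20d1 lost it in 5 fits, without *Stat5* Adipoq replicate 3 or 4 and without control replicate 1, 2 or 4 (adjusted p between 0.0286 and 0.0724 from edgeR).

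**Figure D3:**
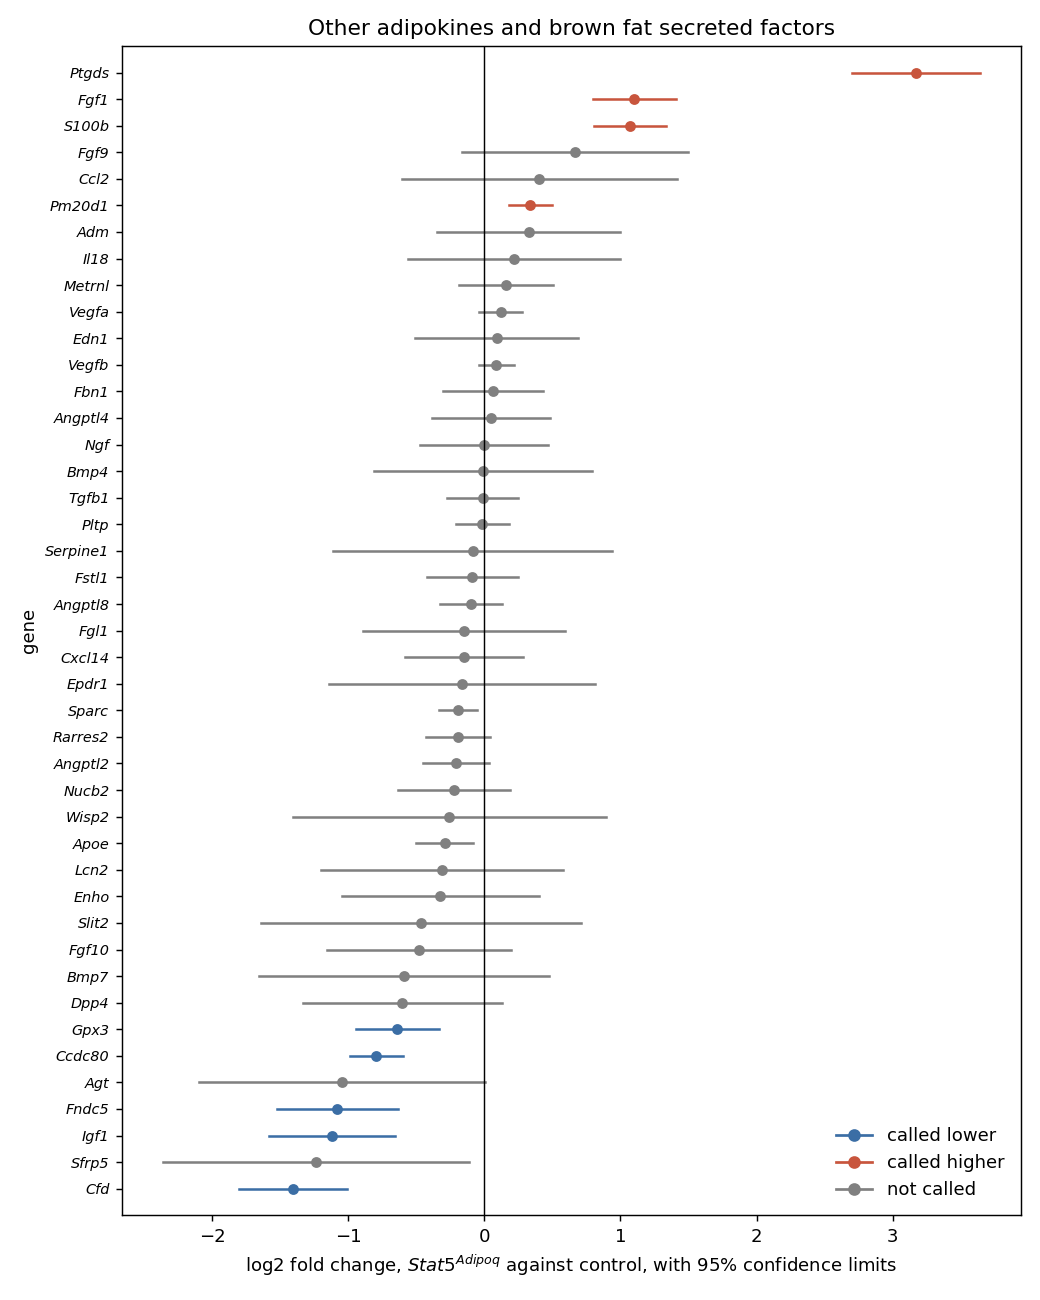
Log2 fold change of *Stat5* Adipoq against control BAT with 95% confidence limits for 43 tested genes of the list of other adipokines and secreted factors, blue where called lower, red where called higher and grey where not called, with 5 libraries per genotype. Ptgds stands at 3.17, and Cfd at -1.41 is the lowest.

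Markers were examined for the tissue and for other cells in it. Of 12 brown adipocyte markers 1 was called, Cox7a1, which was higher (log2 fold change 0.29, edgeR adjusted p = 0.0395), and Ucp1, the most abundant, ranged from 5402 to 13831 CPM in controls and from 7843 to 12660 CPM in *Stat5* Adipoq libraries. Of 9 pan-adipocyte markers 1 was called, Pck1, which was lower (log2 fold change -0.46, edgeR adjusted p = 0.0371). DESeq2's Wald test called 2 more of them lower, Lpl (adjusted p = 0.00648) and Pnpla2 (adjusted p = 0.0111), and limma-voom called Pck1 alone. Lpl had a log2 fold change of -0.56 (edgeR adjusted p = 0.0743), and edgeR called it without control replicate 5 (adjusted p = 0.0204) and without both control libraries with muscle transcripts (adjusted p = 0.0232). With 1 library left out, Cox7a1 was called in 3 of 10 fits, those without control replicate 3 or *Stat5* Adipoq replicate 1 or 2 (adjusted p between 0.0222 and 0.103), and Pck1 in 2, those without control replicate 2 or 5 (adjusted p between 0.0131 and 0.108). Cox7a1 also lost its call without both control libraries with muscle transcripts (edgeR adjusted p = 0.0674), and Pck1 with a block for the replicate number (edgeR adjusted p = 0.0593). No marker of macrophages (10 tested), endothelium (10), fibroblasts and preadipocytes (10), T and B cells (7), Schwann cells (7) or skeletal muscle (12) was called by edgeR, with unadjusted p-values below 0.05 for 0, 2, 0, 2, 6 and 12 of them. DESeq2's Wald test called 1 Schwann cell marker, Pmp22, and 4 muscle markers, Acta1, Ckm, Myh1 and Tnnc2, all lower, and limma-voom called none in these lists. Of 10 tested liver markers 1 was called, Cyp2e1, which was lower (edgeR adjusted p = 0.0374, lost in 8 of 10 fits with 1 library left out, all but those without control replicate 5 or *Stat5* Adipoq replicate 1, with adjusted p up to 0.111). The liver list had 9 of 10 log2 fold changes below 0, a median of -2.46 and 3 unadjusted p-values below 0.05. Of the 10, 8 averaged between 3.6 and 38.2 counts per library, and all 8 were highest in control replicate 3, such as Alb with 38.7 CPM there and at most 1.6 CPM in any other library. Hp, the most abundant, had a log2 fold change of 0.19. What part control replicate 3 has in this median was not tested.

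The 7 Schwann cell markers all had log2 fold changes below 0, with a median of -0.82. Their summed level was 135, 333, 208, 529 and 199 CPM in controls and 232, 150, 122, 141 and 136 CPM in *Stat5* Adipoq libraries, Mbp was the most abundant and none was at 0. Control replicate 4 was the highest library and *Stat5* Adipoq replicate 1 the highest of its group, as for Retn, whereas control replicate 1, with the most Retn, had the lowest sum of the controls. The part of these cells in the result for Retn was not tested.

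Promoter sequence was taken from RefSeq for build GRCm38.p6, which gave 12 start sites for the 10 genes, and windows from 250 bases before to 50 bases after each start were searched on both strands. The letters TTCNNNGAA, the core of sites that STAT5 binds, were in none of the windows of the 10 genes and in 8.3% of all 32851 promoter windows. The palindrome TTGCGCAA, which C/EBP factors bind, was found in the window of Lep alone, where it began 55 bases before the start, and in 0.18% of all windows. CCAAT was found for Bmp8b, Gdf15, Adipoq and Rbp4 and in 37.41% of all windows, and TATAA for Lep, Fgf21 and Rbp4 and in 24.87%. A match is a description of these letters, and no match says only that they are not in this window. The 250 bases before the start are printed for Retn, the gene called here, for Lep, which had a fold change of the other sign, and for Adipoq, whose promoter drives the Cre, 5′ to 3′ on the plus strand at chr8:3655520-3655769, chr6:29059971-29060220 and chr16:23146286-23146535. Capitals mark the matches of the 4 motifs, which in Lep are the C/EBP palindrome and, overlapping on both strands, 2 matches of TATAA, in Adipoq 3 matches of CCAAT, and in Retn none.
Retn: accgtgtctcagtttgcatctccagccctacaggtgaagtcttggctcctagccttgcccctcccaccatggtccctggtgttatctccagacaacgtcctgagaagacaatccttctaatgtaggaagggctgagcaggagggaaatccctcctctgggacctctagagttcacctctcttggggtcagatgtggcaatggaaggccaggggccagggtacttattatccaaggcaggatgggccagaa
Lep: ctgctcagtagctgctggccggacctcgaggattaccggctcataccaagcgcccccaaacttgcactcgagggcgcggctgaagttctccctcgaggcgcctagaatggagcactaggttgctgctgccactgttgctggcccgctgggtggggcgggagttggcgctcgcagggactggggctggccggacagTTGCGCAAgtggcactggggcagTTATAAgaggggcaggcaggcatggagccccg
Adipoq: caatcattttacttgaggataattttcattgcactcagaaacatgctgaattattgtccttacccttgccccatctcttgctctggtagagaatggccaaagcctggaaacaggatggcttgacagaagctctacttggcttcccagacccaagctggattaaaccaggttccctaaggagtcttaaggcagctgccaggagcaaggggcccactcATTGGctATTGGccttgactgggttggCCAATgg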

How the data were processed

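RNA of BAT from 5 control and 5 *Stat5* Adipoq mice was sequenced from libraries of a TruSeq stranded kit, 1 per mouse, and replicates are separate mice. The values used are counts per gene that the authors deposited without normalization, made by aligning reads to GRCm38 with STAR 2.5.0b and counting over exons with featureCounts 1.5.0-p1. Whether counting used the strand is not given in the sources used here. The authors' comparison table, with log2 fold changes, standard errors and p-values of DESeq2 1.16.1, gave only gene symbols and their Entrez identifiers. Its other columns and its subsets were not used. Libraries were assigned to genotypes from the sample labels.

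The 10 genes and all lists were chosen by name, with earlier results of these data known. The filter kept 13568 genes whose row sum after scaling by DESeq2 size factors exceeded 45. The test was the quasi-likelihood F test of edgeR 4.0.16 on TMM-scaled counts, without covariates and with Benjamini-Hochberg adjustment. Its fold change and F statistic give the standard errors and 95% limits. The procedure was tested on simulated data. Depth was 8488129 to 19514904 counts per library, and Bmp8b, the tested gene of the 10 with the fewest counts, had 27.8 on average. No pair of libraries differed by sampling noise alone.

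Genes named are the 10 in every library, from each list every called gene or else up to 4 of the highest mean CPM, for each of the 10 with at least 50 counts on average the 2 genes of the highest r, and genes within 200 kb of Adipoq. Others were chosen after their values were seen. Of the listed names 1, Wdnm1, matched no gene. Exon lengths and shared 50-base words are from GENCODE vM21, matched by Entrez identifier for all 10 genes. An exon length counts each exon base of all transcripts of a gene once. Promoter sequence and gene positions are from RefSeq for GRCm38.p6.

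Alternatives were DESeq2 1.42.0, limma-voom (limma 3.58.1), DESeq2 size factors, library size only, no filter on low counts, filterByExpr, a block for the replicate number and leaving out each library. Leaving out both control libraries with muscle transcripts was added after the data were seen.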

Additional observations from a re-analysis of the deposited data

Results flagged for a closer look

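Among 86 groups of 5 libraries examined (CPM of the 10 secreted factors and of called genes of the lists, total counts, and summed marker levels), 10 had a library whose gap to its nearest neighbour was large for the range of the group, where chance gives about 4.3.

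Of the 10 secreted factors, Gdf15 alone had such a library, *Stat5* Adipoq replicate 3 with 0.462 CPM against 0 to 0.128 CPM in the others, which rests on 5 counts. *Stat5* Adipoq replicate 1 was set apart by Stat5a, with 20.7 CPM against 15.8 to 16.6 CPM, by Cyp2e1, with 82.0 CPM against 23.7 to 32.3 CPM, and by the Schwann cell markers, which summed to 232 CPM against 122 to 150 CPM. Retn was also highest of its group in this library, at 58.7 CPM, and without it the log2 fold change of Retn was -1.94. Control replicate 3 was set apart by Kng1, a neighbour of Adipoq, with 5.41 CPM against 0 to 0.183 CPM in the other controls, and by the skeletal muscle markers, which summed to 4950 CPM against 6.22 to 402 CPM. Control replicate 4 was the deepest library, at 19.5 M where the other controls held 8.49 M to 10.9 M, with summed macrophage markers of 234 CPM against 175 to 191 CPM. The same macrophage sum was lowest in *Stat5* Adipoq replicate 3, at 148 CPM against 183 to 195 CPM. In control replicate 1 the T and B cell markers summed to 11.0 CPM against 6.61 to 7.26 CPM. The part of these values in the results was not tested beyond leaving out each library, and both control libraries with muscle transcripts together.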

How the results depend on the processing

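Retn kept its direction in all fits and was called in the 8 other settings (log2 fold change between -1.73 and -1.53, adjusted p between 0.00220 and 0.0406), and in 6 of 10 fits with 1 library left out. The number of genes called was 368, 660 with DESeq2's Wald test, and 185 to 442 with 1 library left out (221, 213 and 219 without control replicate 1, 2 or 4, and 185, 189 and 188 without *Stat5* Adipoq replicate 3, 4 or 5). Of the 8 tested secreted factors, DESeq2 called 2, and 0 to 1 were called with 1 library left out. Called receptors numbered 3 with DESeq2, 1 each with limma-voom, library size only, filterByExpr and without both control libraries with muscle transcripts, and 0 to 2 with 1 library left out. Called relatives numbered 2 with DESeq2, 0 in each of limma-voom, library size only, no filter, filterByExpr and without both libraries with muscle transcripts, and 0 to 2 with 1 library left out. Nrg2 was tested in 7 of the 8 other settings, since filterByExpr removed it. Leaving out 1 library gave 0 to 1 NAD genes, 5 to 10 of the other secreted factors and 1 to 6 markers, of which 4 were called with all libraries and 13 with DESeq2. The log2 fold change of Apln changed sign, between -0.15 and 0.15, with 1 library left out. Causes of these shifts were not tested. Levels per kb moved by less than 1 SD with library size only. Same-numbered libraries did not pair: the correlation of their deviations was -0.25 to 0.19, over 0.1 for 1 of 5, and 1 of 5 correlated best with its own number. With the replicate block 273 genes were called, with 2 of the 8 secreted factors (Retn and Bmp8b), 1 receptor (Klb, adjusted p = 0.0190), 0 relatives, 0 of the assembly and processing genes, 7 of the other secreted factors and 4 genes near Adipoq. Calls lost there were those of Pcsk6 (adjusted p = 0.0516), Nrg2 (0.0538), Pck1 (0.0593), Pm20d1 (0.0774), St6gal1 (0.102) and Gpx3 (0.105), while Hoxc8 (0.0237) and Slc7a10 (0.0343) were called lower. Pm20d1 and St6gal1 were also lost with library size only (0.0561 and 0.0732), and Cox7a1 and Rfc4 without both libraries with muscle transcripts (0.0674 and 0.0623). Fgf21, Gdf15, Nrg2, Lepr and Bmp8b had few counts, and Bmp8b also varied from 1.26 to 8.15 CPM within *Stat5* Adipoq BAT. Each genotype had 5 libraries, and the absence of a call for Nampt, Rbp4 or Nrg4 does not show that they were unchanged. Whether more depth or more mice would alter these results was not tested.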
